A study of Mus musculus with 7 samples.

Results

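Genes that move protons, bicarbonate and the chloride that accompanies them were compared between normocapnia and hypercapnia in sorted Pax7-GFP cells of mouse skeletal muscle. Members were taken by symbol alone: the subunits of the vacuolar proton pump (V-ATPase, symbols that start with Atp6v or Atp6ap, and Tcirg1), the Slc4, Slc9 and Slc26 carrier families and the Clcn family. In all, 65 of the 23930 genes in the deposited table met this rule. They comprised 11 subunits of the cytosolic V1 sector, 9 of the membrane V0 sector, 3 accessory V-ATPase genes, 11 Slc4, 11 Slc9, 11 Slc26 and 9 Clcn genes. The symbols also brought in Slc4a1ap, an adaptor that binds a transporter and carries nothing itself, and Slc9a3r1 and Slc9a3r2, scaffolds of sodium-proton exchangers.

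Carbon dioxide that enters a cell is hydrated to carbonic acid, and cells defend their pH with carriers at the surface and in organelles. Sodium-proton exchangers of the Slc9 family export protons, while Slc4 and several Slc26 carriers move bicarbonate. The V-ATPase spends ATP in its V1 sector to turn a rotor in the V0 sector, which drives protons into lysosomes, endosomes and secretory vesicles. Clcn proteins of these organelles exchange chloride for protons and so balance the charge that the pump moves. Acid lysosomes degrade what autophagy delivers, and macrophages and osteoclasts are rich in V-ATPase.

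The 7 libraries comprised 3 from normocapnia (NC1 to NC3) and 4 from hypercapnia (HC1 to HC4). All came from inducible Pax7-GFP mice, in which tamoxifen permanently labels Pax7-expressing satellite cells, the muscle stem cells, and their progeny. Per the labels, all mice received tamoxifen at 12 weeks of age, were kept in either condition for 4 weeks and were collected at 16 weeks of age, with labeled cells sorted from the muscles of both hind legs. The methods describe a Pax7-driven CreERT2 with a ZsGreen reporter, a chamber held at 10% CO2 against room air, and cardiotoxin injury of the tibialis anterior and gastrocnemius 3 days before collection. The labels do not mention the injury, and the title of the deposited table carries a time in hours, which in the methods belongs to cultured cells. The strain reads C57BL/6 for NC1 and rises by 1 with each sample to C57BL/12 for HC4, whereas the growth notes name C57/B6 littermates for all. The labels do not say whether each library is a separate animal, so p-values measure only the spread between these libraries.

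RNA was measured with an AmpliSeq panel, in which a single amplicon stands for each gene, and values are RPM, reads scaled to a common total of those assigned to the panel. Because amplicons differ in yield, differences are given for a gene between libraries, and where genes were ranked by RPM to choose those named, the order depends on the amplicons too. Library totals were 14527445 to 23388710 reads, and 3 reads, taken as the floor, equal 0.128 to 0.207 RPM. This floor covers counting error only. Libraries did not stand at equal distances from each other: the chi-square over degrees of freedom was 24.6 for HC1 with HC2 and 27.3 for HC3 with HC4, against 104.6 to 528.2 for the other 19 pairs. The hypercapnia libraries therefore formed 2 close pairs, and whether the members of a pair share an animal or a preparation was not tested. Markers of several cell types were present. Pax7 had 268 RPM in NC1, 8.25 RPM in NC2 and 4.34 RPM in NC3, against 20.1 to 79.5 RPM in the hypercapnia libraries. The sum of 10 satellite cell markers, none at 0, was 603.8 to 3462.9 RPM in normocapnia and 778.7 to 1551.5 RPM in hypercapnia. Within that sum Sdc4 alone gave 780.9 RPM in NC2, 441.3 RPM in NC3 and 428.7 to 449.6 RPM in hypercapnia. The sum of 12 macrophage markers was 12285.7 to 35016.9 RPM in normocapnia and 20126.3 to 25043.1 RPM in hypercapnia. In such bulk RNA, fewer cells of a type and less RNA per cell cannot be told apart.

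Differences were tested with limma on log2(RPM + 1) over all genes, a scale that understates the change of genes of low value. A gene was called where its p before adjustment was under 0.05 and its fold change over 1.5, and positive log2 values are higher in hypercapnia. By this rule 5 members were higher in hypercapnia and 0 were lower. The 5 are 7.69% of the 65 members, beside 2.57% called in either direction over all genes, 1.43% called higher and 1.14% called lower. Low genes can hardly be called on this scale, and 17 members had a mean under 1 RPM. Among the 33 members with a mean of at least 10 RPM, the called share was 15.2%, beside 5.54% of all genes at that level (3.07% higher and 2.47% lower). No member passed Benjamini-Hochberg adjustment of the limma p-values over all genes (lowest adjusted p = 0.877), and neither did any gene of the table (lowest adjusted p = 0.351). At an unadjusted p under 0.05 stood 6 members and 1114 genes. On whole reads, edgeR's quasi-likelihood test also left 0 members and 0 genes after adjustment, and DESeq2 left 0 members and 29 genes. Of the called members, 4 were V-ATPase genes (Atp6v1a, Atp6v1d, Atp6v0b and Atp6ap1) and 1 was the endosomal exchanger Slc9a9.

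**Figure D1:**
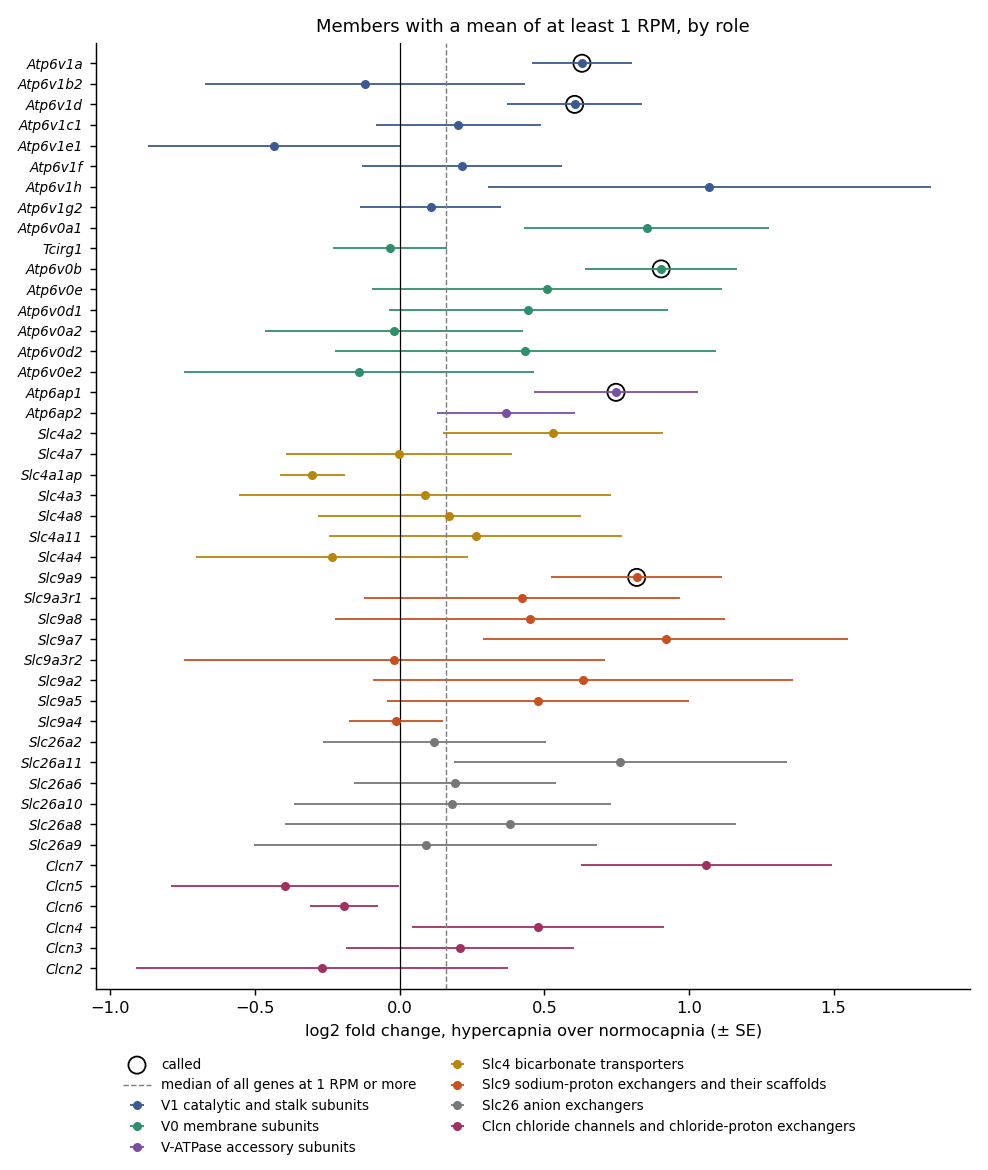
Log2 fold change (hypercapnia over normocapnia, x axis) of 45 of the 48 members with a mean of at least 1 RPM, ordered and colored by role. Bars are ± 1 SE from limma, rings mark the 5 called members, and the dashed line is the median of all genes at that level (0.16). Called members lie in the V1, V0, accessory and Slc9 groups, and many bars cross 0.

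Atp6v1a encodes the catalytic A subunit of the V1 sector, which hydrolyses ATP. In normocapnia it had 127.8, 130.7 and 134.9 RPM and in hypercapnia 232.3, 256.2, 167.2 and 172.2 RPM, in the order of the library numbers here and throughout. The normocapnia libraries lay close together, every hypercapnia library lay above them, and HC1 and HC2 were higher than HC3 and HC4. The mean was 131.2 ± 3.58 RPM (SD, n = 3) in normocapnia and 207.0 ± 44.2 RPM (SD, n = 4) in hypercapnia. The log2 fold change was 0.63 (SE 0.17, limma, unadjusted p = 0.0128, Benjamini-Hochberg adjusted p = 0.877). The call was lost in 8 of 19 other analyses, among them edgeR with and without a filter, DESeq2 and the filter at a mean of 1 RPM. The log2 value was under the fold threshold without HC1 (0.57) and without HC2 (0.52), and with median-of-ratios scaling it was 0.49 with a unadjusted limma p of 0.187.

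Atp6v1d, the D subunit of the central rotor, was also called. Its values were 55.3, 88.9 and 63.7 RPM in normocapnia and 126.1, 123.0, 88.4 and 84.6 RPM in hypercapnia. HC1 and HC2 were highest, while NC2 lay above HC3 and HC4, so the groups overlapped. The log2 fold change was 0.60 (SE 0.23, limma, unadjusted p = 0.0444, adjusted p = 0.915). This call was lost in 14 of 19 other analyses, among them those without NC1 (0.46), NC3 (0.56), HC1 (0.51), HC2 (0.52) or HC3 (0.68, limma, unadjusted p = 0.0501).

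The other V1 subunits did not reach the threshold. Atp6v1b2, the B subunit that alternates with the A subunit in the catalytic ring, had 52.5, 168.3 and 194.5 RPM in normocapnia and 141.3, 158.1, 88.7 and 74.6 RPM in hypercapnia. NC1 was lowest and NC3 highest of all 7, and the log2 difference of -0.12 (SE 0.55) changed sign without NC2, NC3 or HC4. Partners in one ring thus had log2 differences of 0.63 and -0.12, a comparison that was not itself tested. Atp6v1c1, Atp6v1e1, Atp6v1f and Atp6v1h, which belong to the stalks and the regulatory cap, had log2 differences of 0.20, -0.43, 0.21 and 1.07. The SE of 0.76 for Atp6v1h reflects normocapnia values of 22.2, 66.2 and 7.09 RPM. Without NC2, Atp6v1h was called higher (1.84, limma, unadjusted p = 0.0293), and without NC1, Atp6v1e1 was called lower (-0.90, limma, unadjusted p = 0.0276). The naming rule does not cover these 2 genes, which were picked with their values in view. Atp6v1g2 had a mean of 1.15 RPM, and Atp6v1b1, Atp6v1c2 and Atp6v1g3 had at most 3 reads in every library.

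Among V0 subunits, Atp6v0b, which encodes a proteolipid of the proton-carrying rotor, was called higher. It had 143.2, 201.6 and 101.5 RPM in normocapnia and 295.7, 322.1, 238.5 and 229.3 RPM in hypercapnia. All 4 hypercapnia libraries lay above the highest normocapnia library in RPM, but not under median-of-ratios scaling, where 0 members were apart. The mean was 149 ± 50.3 RPM (SD, n = 3) in normocapnia and 271 ± 44.8 RPM (SD, n = 4) in hypercapnia. The log2 fold change was 0.90 (SE 0.26, limma, unadjusted p = 0.0157, adjusted p = 0.909). Atp6v0b was called in each of the 19 other analyses, with log2 values from 0.60 (macrophage score as a covariate) to 1.15 (without NC2). The range of its adjusted p over these analyses was 0.397 to 0.961.

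Atp6v0a1 and Tcirg1 encode alternative a subunits, which anchor the pump in a given membrane; Tcirg1, the a3 isoform, is known from osteoclasts and late lysosomes. Atp6v0a1 had 204.2, 462.3 and 198.2 RPM in normocapnia and 600.5, 694.1, 355.4 and 360.5 RPM in hypercapnia. NC2 stood above HC3 and HC4, and the log2 difference of 0.85 (SE 0.42, limma, unadjusted p = 0.0945) was not called. Without NC2 it was 1.25 and called (limma, unadjusted p = 0.0196). Tcirg1 had 273.1, 478.4 and 396.9 RPM in normocapnia and 370.8, 393.9, 362.7 and 333.9 RPM in hypercapnia, and every hypercapnia library lay within the normocapnia range. Its log2 difference was -0.03 (SE 0.20), with a sign that turned under quantile normalization (0.06) and without NC2 (0.15), NC3 or HC4.

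The ratio of Atp6v0a1 to Tcirg1 within a library, which cancels library scaling, was 0.748, 0.966 and 0.499 in normocapnia and 1.62, 1.76, 0.980 and 1.08 in hypercapnia. The groups did not overlap, though NC2 and HC3 nearly met. The mean ratio was 0.738 ± 0.234 (SD, n = 3) in normocapnia and 1.36 ± 0.388 (SD, n = 4) in hypercapnia. The ratio depends on the yield of both amplicons and was chosen after the values were seen, so it carries no test.

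**Figure D2:**
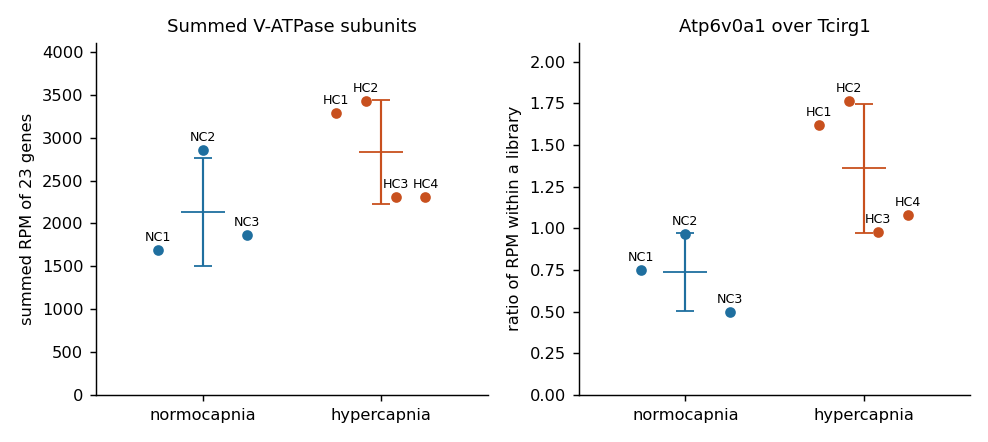
Left, RPM summed over the 23 V-ATPase genes in each library, and right, the ratio of Atp6v0a1 to Tcirg1 in RPM. Points are libraries, and lines with bars are the mean ± SD of 3 normocapnia and 4 hypercapnia libraries. The sums overlap, with NC2 (2850 RPM) above HC3 (2308 RPM) and HC4, while the ratios do not.

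The remaining V0 genes were not called. Atp6v0e had 69.1, 165.6 and 33.7 RPM in normocapnia and 67.6 to 145.7 RPM in hypercapnia. Atp6v0d1, the d subunit found in most cells, had 60.8, 123.0 and 36.5 RPM in normocapnia and 63.4 to 120.3 RPM in hypercapnia. Their log2 differences were 0.51 (SE 0.60) and 0.44 (SE 0.48), with NC2 the highest library for both. Atp6v0d2, the d subunit known from osteoclasts and macrophages, had 22.0, 8.55 and 28.4 RPM in normocapnia and 47.4, 39.0, 12.3 and 14.6 RPM in hypercapnia. HC1 and HC2 were highest and NC2 lowest, and the log2 difference of 0.43 (SE 0.66) became -0.05 without NC2. Atp6v0a2 had a log2 difference of -0.02 (SE 0.45), and Atp6v0e2 and Atp6v0a4 had means of 3.47 and 0.519 RPM.

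**Figure D3:**
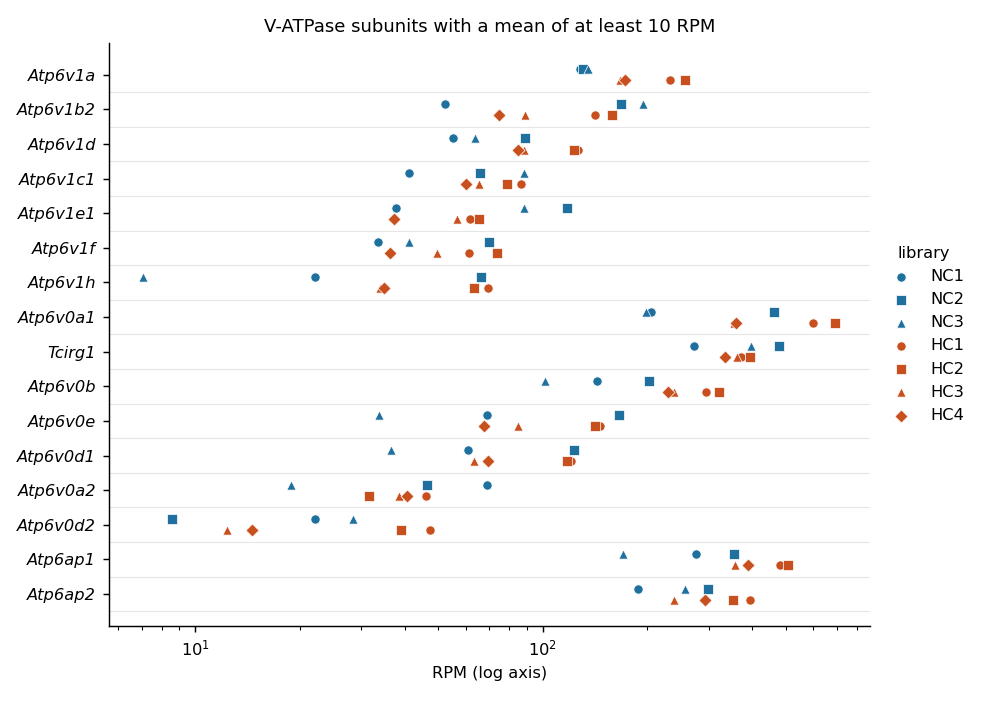
RPM on a log axis for the 16 V-ATPase genes whose mean reached 10 RPM, with blue points for normocapnia and orange points for hypercapnia libraries, and shapes for replicate numbers. The groups do not overlap for Atp6v1a, Atp6v0b and Atp6ap1, and HC1 and HC2 lie above HC3 and HC4 for 15 of the 16 genes.

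Of the accessory genes, Atp6ap1 encodes Ac45, a glycoprotein that helps assemble the V0 sector. It had 275.7, 355.2 and 169.5 RPM in normocapnia and 480.5, 507.7, 356.7 and 389.6 RPM in hypercapnia. The groups did not overlap, but HC3 was only just above NC2. The log2 fold change was 0.75 (SE 0.28, limma, unadjusted p = 0.0417, adjusted p = 0.915). The call was lost in 12 of 19 other analyses, among them those without NC1 (0.80, limma, unadjusted p = 0.0768), NC3 (0.45), HC1 (0.69), HC2 (0.67) or HC4 (0.79, limma, unadjusted p = 0.0664). Atp6ap2, the prorenin receptor, had 188.0, 298.3 and 256.8 RPM in normocapnia and 395.7, 353.6, 238.0 and 291.9 RPM in hypercapnia. HC1 and HC2 were highest and the groups overlapped, with a log2 difference of 0.37 (SE 0.24, limma, unadjusted p = 0.180). Atp6ap1l had at most 3 reads in every library.

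Summed over its 23 genes, the V-ATPase made up 1687, 2850 and 1861 RPM in normocapnia and 3284, 3423, 2308 and 2303 RPM in hypercapnia. The mean was 2133 ± 628 RPM (SD, n = 3) in normocapnia and 2829 ± 608 RPM (SD, n = 4) in hypercapnia, with NC2 inside the hypercapnia range. Such a sum is weighted by the amplicons of high yield. HC1 and HC2 were both above HC3 and HC4 in 15 of the 16 V-ATPase genes that reached a mean of 10 RPM (93.8%), beside 28.2% of all genes at that level, and both below in 0, beside 40.3%. The macrophage genes Adgre1 and Mpeg1 were called higher in hypercapnia, the 2 called of 12 macrophage markers. Adgre1, which encodes the surface protein F4/80, had 109.0, 149.0 and 70.5 RPM in normocapnia and 392.2, 429.1, 151.4 and 183.8 RPM in hypercapnia, with HC1 and HC2 again above HC3 and HC4. Of the 12 macrophage markers 9 had positive log2 values, while Itgam, Csf1r and the abundant Lyz2 had -0.12, -0.14 and -0.01. Lyz2 had 13410 RPM in HC2, below HC3 (14451 RPM) and HC4 (14393 RPM). C1qa had at most 0.452 RPM in any library and was at 0 in NC3 and HC3. With the mean level of the 12 macrophage markers as a covariate, only Atp6v0b of the 65 members was called, beside 2.57% of all genes in that fit. The log2 values were 0.49 for Atp6v1a, 0.31 for Atp6v1d, 0.44 for Atp6ap1 and 0.74 for Slc9a9. Without that covariate they were 0.63, 0.60, 0.75 and 0.82. The unadjusted limma p-values of these 4 genes with the covariate were 0.0413, 0.0182, 0.0893 and 0.105. Atp6v1a and Atp6v1d thus lost the call through the fold threshold only. At an unadjusted p under 0.05 stood 5 members with the covariate, beside 6 without it. With the mean level of the satellite cell markers as a covariate, 4 members were called higher and 1 lower, beside 4.31% of all genes in either direction. What part either cell type has in these differences was not tested.

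Promoter letters were searched because several V-ATPase genes had higher values together. The CLEAR element is a palindrome bound by TFEB and related factors that control lysosomal genes. The 8 letters searched here for it, TCACGTGA, contain the E-box core CACGTG and read the same on both strands. RefSeq promoters on GRCm38.p6, from 250 bases before to 50 bases after each gene's start, were matched by symbol for 47 of the 65 members. TCACGTGA was present for 5 of the 47 (10.6%), 3 of them among 17 V-ATPase genes (17.6%), beside 1.12% of the 27025 genes in the promoter table. CACGTG alone or within it was present for 9 of the 47 (19.1%), beside 8.09%. The 30-base windows below run 5′ to 3′ on the strand of the gene, with the matched letters in capitals. They are shown for the 5 genes with all 8 letters and for Atp6v0b, which was called in every analysis. Atp6v0b holds only the core, as do Clcn4, Slc26a1 and Slc9a3, whose windows are not shown.
Atp6v1a: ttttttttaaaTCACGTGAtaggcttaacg
Atp6v0d1: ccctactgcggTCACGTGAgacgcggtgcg
Atp6v0e: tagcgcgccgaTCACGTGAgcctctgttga
Clcn7: ccgatgatagaTCACGTGAgacctgggcgc
Clcn6: cccggggccagTCACGTGAggcgcggatcc
Atp6v0b: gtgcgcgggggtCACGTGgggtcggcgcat

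The windows lie at chr16:44139373-44139402 (minus strand) for Atp6v1a, chr8:105566050-105566079 (minus) for Atp6v0d1 and chr17:26676387-26676416 (plus) for Atp6v0e. Those of the other genes lie at chr17:25133386-25133415 (plus) for Clcn7, chr4:148038821-148038850 (minus) for Clcn6 and chr4:117887348-117887377 (minus) for Atp6v0b. The first matched base is 132 bases before the start of Atp6v1a, 4 before that of Atp6v0d1, 26 before that of Clcn6 and 36 before that of Atp6v0b. In Atp6v0e and Clcn7 the letters begin at transcribed bases 3 and 7, within the first exon. The promoters of Atp6v0b, Clcn6 and Clcn7 each hold 2 matches to CACGTG, of which a single window is shown. A match describes letters and is no evidence of binding. Of the 5 genes with all 8 letters, Atp6v1a was called, and the other 4 had log2 differences of 0.44 (Atp6v0d1), 0.51 (Atp6v0e), 1.06 (Clcn7) and -0.19 (Clcn6). Tfeb itself had a log2 difference of -0.38. Of 8 genes that regulate lysosomal genes 0 were called (median -0.20), beside 2.57% of all genes, with Fnip1 at the highest mean RPM (0.26, SE 0.36).

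Slc9a9 encodes NHE9, a sodium-proton exchanger of endosomes that lets protons leak out and so opposes the pump. It had 142.7, 142.1 and 239.8 RPM in normocapnia and 354.0, 395.9, 220.5 and 261.1 RPM in hypercapnia. NC3 lay above HC3, so the groups overlapped, and HC1 and HC2 were highest. The log2 fold change was 0.82 (SE 0.30, limma, unadjusted p = 0.0352, adjusted p = 0.915). The call was lost in 11 of 19 other analyses, among them median-of-ratios scaling (0.68, limma, unadjusted p = 0.214) and those without NC1 (0.70), NC2 (0.69), HC1 (0.74), HC2 (0.69) or HC4 (0.89, limma, unadjusted p = 0.0522).

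The organelle exchangers Slc9a7 and Slc9a8 and the scaffold Slc9a3r1 had log2 differences of 0.92, 0.45 and 0.42, with NC3 the lowest library for each. Without NC1, Slc9a7 was called higher (1.64, limma, unadjusted p = 0.00645), as was Slc9a2 (1.43, limma, unadjusted p = 0.0258). Without NC2, Slc9a3r1 was called higher (1.05, limma, unadjusted p = 0.0153). Slc9a3r2 had 4.20 and 4.22 RPM in HC1 and HC2 against 26.7 and 19.2 RPM in HC3 and HC4. It was the only member of at least 10 RPM for which HC1 and HC2 were both below the other pair. Slc9a2, Slc9a3, Slc9a4 and Slc9a5 had means of 0.234 to 3.51 RPM.

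Bicarbonate carriers of the Slc4 family showed 0 calls among 11 genes, beside 2.57% called over all genes, and 4 had a mean under 1 RPM. Slc4a2, the anion exchanger AE2 that trades chloride for bicarbonate, had 42.9, 71.6 and 22.2 RPM in normocapnia and 56.3, 63.2, 58.9 and 60.1 RPM in hypercapnia. The hypercapnia libraries fell within the wide normocapnia range, and the log2 difference of 0.53 (SE 0.38, limma, unadjusted p = 0.218) was called only without NC2 (0.92, limma, unadjusted p = 0.0222). Slc4a7, the sodium-bicarbonate cotransporter NBCn1 that loads bicarbonate into cells, had 61.0, 55.2 and 20.6 RPM in normocapnia and 44.3, 37.2, 40.9 and 42.6 RPM in hypercapnia. Its log2 difference was -0.0018 (SE 0.39), with NC3 the lowest and NC1 the highest library. Slc4a1ap had 16.4, 16.7 and 19.2 RPM in normocapnia and 14.8, 12.7, 16.1 and 12.3 RPM in hypercapnia. Every hypercapnia library was below every normocapnia library, but the log2 difference of -0.30 (SE 0.11, limma, unadjusted p = 0.0386, adjusted p = 0.915) was under the fold threshold. The electrogenic cotransporter Slc4a4 and Slc4a3, Slc4a8 and Slc4a11 had means of 1.17 to 3.41 RPM and were highest in NC1. Slc4a1, the band 3 exchanger of red blood cells, ranged from 0 to 3.18 RPM. Slc4a5 and Slc4a10 had at most 3 reads in every library, and Slc4a9 was at 0 in all 7.

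Slc26 anion exchangers also showed 0 calls among 11 genes, beside the same 2.57% over all genes, and 5 had a mean under 1 RPM. Slc26a2, a sulfate carrier, had 35.9, 38.7 and 13.1 RPM in normocapnia and 28.8, 30.1, 29.7 and 26.6 RPM in hypercapnia. The hypercapnia values were nearly alike, and the log2 difference of 0.12 (SE 0.39) was -0.36 without NC3, with a unadjusted limma p of 0.00322 but under the fold threshold. Slc26a11, another sulfate and anion carrier, had 10.0, 19.9 and 3.10 RPM in normocapnia and 16.9, 20.2, 15.4 and 11.4 RPM in hypercapnia. Its log2 difference of 0.76 (SE 0.57, limma, unadjusted p = 0.237) was called only without NC2 (1.31, limma, unadjusted p = 0.0444). Slc26a6, which exchanges chloride for bicarbonate, ranged from 2.89 to 7.48 RPM. Slc26a4, the pendrin gene, was at 0 in all 7 libraries.

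Clcn7 encodes the chloride-proton exchanger of lysosomes. It had 53.5, 79.9 and 25.5 RPM in normocapnia and 115.7, 137.9, 81.0 and 80.2 RPM in hypercapnia. The groups did not overlap, but HC3 and HC4 were only just above NC2. The log2 difference of 1.06 (SE 0.43, limma, unadjusted p = 0.0536, adjusted p = 0.915) missed the p threshold. It was called in 8 of 19 other analyses, among them edgeR with a filter (0.94, unadjusted p = 0.0449), DESeq2 (0.91, unadjusted p = 0.0403) and limma without NC2 (1.42, unadjusted p = 0.0205), while without NC3 it was 0.62. Ostm1, the partner protein that Clcn7 needs in lysosomes, had a log2 difference of -0.31 (SE 0.31), with 146.1 RPM in NC3, the library with the least Clcn7.

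The other organelle exchangers had differences of either sign. Clcn5, an exchanger of early endosomes, had 130.3, 84.2 and 59.0 RPM in normocapnia and 97.6, 82.3, 49.0 and 46.8 RPM in hypercapnia, with a log2 difference of -0.40 (SE 0.39). Clcn6 had 58.8, 68.0 and 56.4 RPM in normocapnia and 47.9 to 62.7 RPM in hypercapnia (log2 -0.19, SE 0.12). Clcn3 and Clcn4 had log2 differences of 0.21 and 0.48, and NC3 was the lowest library for both. The plasma membrane channels Clcn1, the main chloride channel of muscle fibers, and Clcn2 had means of 0.762 and 2.10 RPM, and NC1 was the highest library for both.

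**Figure D4:**
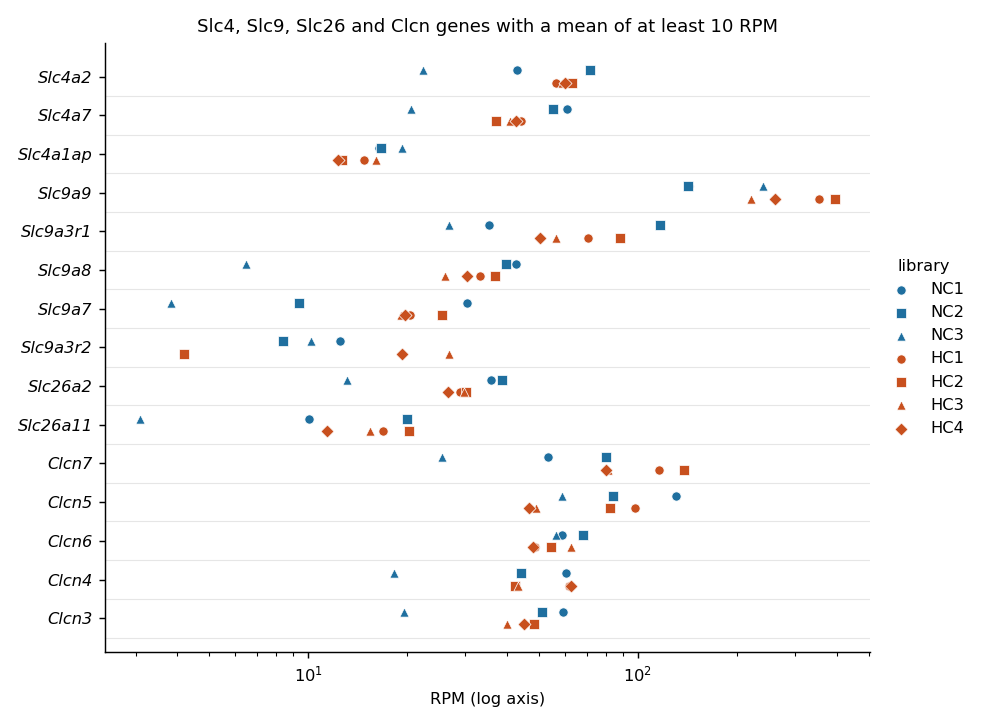
RPM on a log axis for 15 of the 17 Slc4, Slc9, Slc26 and Clcn genes whose mean reached 10 RPM, with colors and shapes for group and replicate as in the plot of V-ATPase genes. The groups do not overlap for Slc4a1ap, lower in hypercapnia, and Clcn7, higher in hypercapnia, and NC3 is often the lowest point.

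Over the 65 members, groups did not overlap for 5 (7.69%), 4 higher (Atp6v1a, Atp6v0b, Atp6ap1 and Clcn7) and 1 lower (Slc4a1ap) in hypercapnia, beside 4.83% of all genes (2.53% higher and 2.30% lower). All 5 had a mean of 10 RPM or more, where 33 members stood and where groups did not overlap for 9.62% of all genes (4.96% higher and 4.67% lower). Under median-of-ratios scaling 0 members were apart in either direction. NC3 was the lowest library for 17 of the 33 members of at least 10 RPM and NC1 for 8. By role, the median log2 difference over members with a mean of at least 1 RPM was 0.21 for V1, 0.44 for V0, 0.56 for accessory, 0.09 for Slc4, 0.44 for Slc9, 0.19 for Slc26 and -0.19 for Clcn genes. The median of all genes at that level was 0.16, and it was 0.05 after median-of-ratios scaling and -0.01 after quantile normalization. These role medians should be read relative to it. The difference from that median was 0.05 for V1, 0.28 for V0, 0.40 for accessory (2 genes), -0.07 for Slc4, 0.28 for Slc9, 0.03 for Slc26 and -0.35 for Clcn genes. Under quantile normalization the Slc4 and Slc26 medians were -0.17 and -0.13. Without NC3 the medians were 0.03 for V0, -0.01 for Slc9 and -0.29 for Slc4 (all genes -0.07), and without NC1 they were 0.56 for Slc4 and 0.33 for Clcn (all genes 0.37). Without HC2 the Clcn median was 0.0057.

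**Figure D5:**
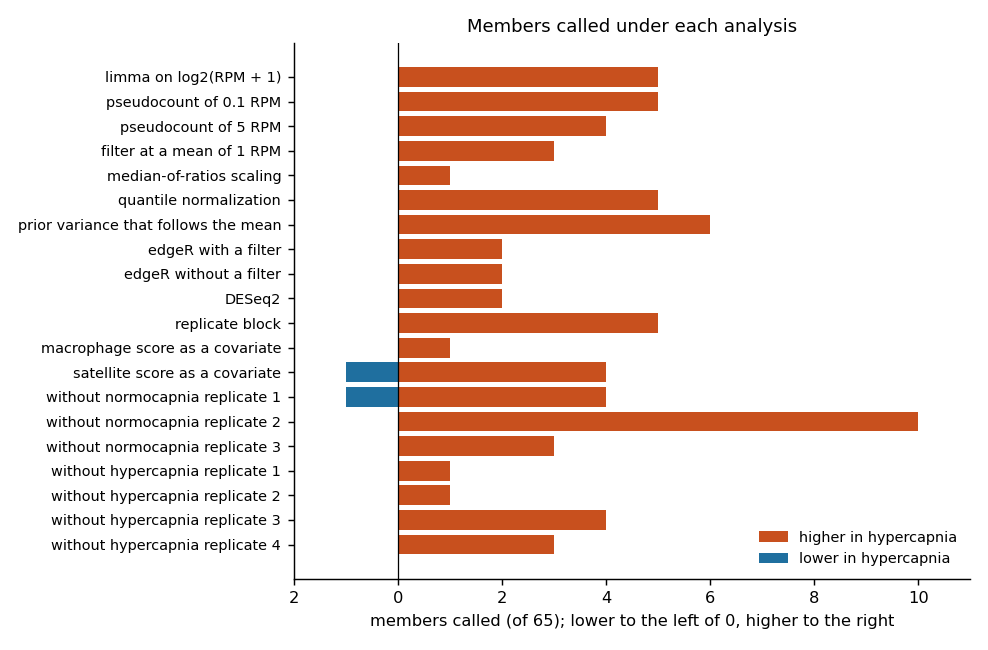
Number of the 65 members called higher (orange, to the right) and lower (blue, to the left) in hypercapnia under limma and each of the 19 other analyses. The count is 5 higher and 0 lower in limma, 10 higher without NC2, and 1 higher with median-of-ratios scaling, with the macrophage score, without HC1 or without HC2.

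Genes that work with these carriers were not called, beside 2.57% called over all genes. Of 11 genes for V-ATPase assembly and regulation, 10 were in the table, with 0 called, 8 positive log2 values and a median of 0.17. The one with the highest mean RPM, Dmxl1, which reassembles the pump, had a log2 difference of 0.25 (SE 0.23). Oxr1, a protein that binds the V1 sector, had 73.1, 65.2 and 69.9 RPM in normocapnia and 85.0, 97.6, 78.2 and 89.2 RPM in hypercapnia. Its groups did not overlap, and its log2 difference of 0.33 (SE 0.08, limma, unadjusted p = 0.00969, adjusted p = 0.828) was under the fold threshold; it was chosen after its values were seen. Of 20 other proton and bicarbonate carriers, all in the table, 0 were called and 10 had positive log2 values (median 0.08). The one of highest mean RPM, Bsg, the chaperone of lactate-proton carriers, had 1044.3 RPM in NC3 and 316.9 to 417.3 RPM in the other 6 libraries (log2 -0.38, SE 0.41).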

How the data were processed

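RNA of sorted Pax7-GFP cells was measured in 3 normocapnia and 4 hypercapnia libraries, grouped by the treatment in the labels. The authors sequenced AmpliSeq libraries on an Ion S5 and deposited RPM per gene, with Transcriptome Analysis Console named in the submitters' processing notes. For the aligner and the build, nothing is given in the sources used here. RPM values were whole multiples of a single read within 0.05 reads for 100% of values, which gave the library totals and whole reads for count tests. Members were found by symbol, and they and all gene lists were chosen with earlier results of these data known. Differences were tested with limma 3.58.1 (R 4.3.3) on log2(RPM + 1) over 23930 genes with no filter and no covariate, with Benjamini-Hochberg adjustment over all genes. Calls use the study's cut-offs, p under 0.05 and a fold change above 1.5, applied here to the unadjusted p. The 19 other analyses were pseudocounts of 0.1 and 5 RPM, quantile normalization, a prior variance made to follow the mean, median-of-ratios scaling, removal of genes whose mean was under 1 RPM, edgeR 4.0.16 (quasi-likelihood, with and without a filter), DESeq2 1.42.0, the replicate number as a block, the macrophage or satellite score (mean log2 level of the marker list) as a covariate, and leaving out each of the 7 libraries. The fits were tested on simulated data.

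Named genes were all called members, members of at least 10 RPM whose groups did not overlap, the 2 of highest mean in each role, Slc4a7, Tcirg1, Atp6v0d2 and Clcn7, and from the lists of other genes those called and the one of highest mean RPM in each. Members named beyond these were chosen after their values were seen. For 4 members, which enter the counts, sums and medians, no values of their own are reported here. Marker lists for other cell types were osteoclasts, neutrophils, lymphocytes, endothelial cells, fibro-adipogenic cells, myofibers and red blood cells. Promoters came from RefSeq (GRCm38.p6), whose relation to the build behind the deposited table was not established.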

Additional observations from a re-analysis of the deposited data

How the results depend on the processing

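In limma and the 19 other analyses no member had a Benjamini-Hochberg adjusted p under 0.05, and the number of members called by unadjusted p and fold change moved with many of them. Beside 5 called higher, 3 were called with a filter at a mean of 1 RPM, where 4.46% of genes tested were called. With median-of-ratios scaling 1 was called (2.56% of genes tested). With edgeR 2 were called with and without a filter (6.03% and 4.38%), 2 with DESeq2 (6.25%) and 1 where the macrophage score entered the model (2.57%). Leaving out a library gave 1 (HC1 or HC2, with 1.61% and 1.57% of all genes called) to 10 (NC2, 5.04%), with 3 without NC3 (2.57%) or HC4 (1.99%). Beside 0 called lower, 1 was called lower with the satellite score, and leaving out a library gave 0 to 1 (Atp6v1e1, without NC1). Over all genes, 615 were called by limma, 1049 by edgeR without a filter, 1304 by DESeq2, 1031 with the satellite score, and 376 (without HC2) to 1990 (without NC1) when a library was left out. Of the 615, 343 were higher and 272 lower, against 317 and 295 under median-of-ratios scaling, 336 and 357 under quantile normalization, 294 and 508 with edgeR after filtering, and 519 and 785 with DESeq2.

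Members whose groups did not overlap numbered 4 higher and 1 lower, 0 and 0 under median-of-ratios scaling, 4 and 0 under quantile normalization, and 4 to 11 higher and 1 to 8 lower without a library, where smaller groups overlap less often by construction. Among role medians, leaving out a library gave 0.025 (NC3) to 0.61 for V0, -0.0062 (NC3) to 0.48 for Slc9, -0.29 (NC3) to 0.56 (NC1) for Slc4, -0.28 to 0.33 (NC1) for Clcn, 0.11 to 0.38 for V1, 0.43 to 0.75 for accessory and 0.05 to 0.40 for Slc26 genes.

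Signs turned for 5 named members that were not called. Leaving out a library gave -0.71 to 0.23 for Atp6v1b2, -0.26 to 0.15 for Tcirg1, -0.49 to 0.28 for Slc4a7, -0.36 to 0.39 for Slc26a2 and -0.0473 to 0.76 for Atp6v0d2. With the satellite score Atp6v1b2 was 0.0181 and Tcirg1 0.0113, and under quantile normalization Tcirg1 was 0.0623. Slc4a7 was 0.0023 with a pseudocount of 0.1 RPM. Slc26a2 was -0.0142 under median-of-ratios scaling, -0.076 under quantile normalization, -0.0367 and -0.0433 by edgeR with and without a filter, -0.0709 by DESeq2 and -0.11 with the macrophage score. The causes were not tested.

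Whether the replicate numbers pair the samples was not established. Deviations from the group means correlated at -0.349 for number 1, 0.503 for number 2 and -0.044 for number 3. Libraries of unlike number reached 0.452 (NC2 with HC1) and 0.388 (NC1 with HC3), so these correlations cannot decide it. With the replicate block, in which HC4 has no partner and adds nothing to the difference, 5 members were called higher and 0 lower, and 598 of all genes were called. Under the block Atp6v1b2 was 0.0662 and Tcirg1 0.0102, both turned in sign. The block gained Clcn7 and Atp6v0a1 and lost Slc9a9 and Atp6v1d. At 14527445 to 23388710 reads a library, depth limits mainly the members at or under 3 reads.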

Other observations

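Values of the other marker lists, which enter no comparison above, were as follows. Of 7 osteoclast and giant cell markers 1 was called higher in hypercapnia (Acp5) and 0 lower, with sums of 545.8 to 1870.7 RPM in normocapnia and 605.9 to 686.2 RPM in hypercapnia. Of 8 neutrophil markers 1 was called higher (Mmp8), with sums of 82.1 to 226.8 RPM and 105.4 to 329.1 RPM. No endothelial, fibro-adipogenic or myofiber marker was called by limma, of 6, 5 and 6 in the table. Endothelial sums were 45.8 and 59.2 RPM in HC2 and HC1 and 395.9 and 509.1 RPM in HC4 and HC3, against 90.2 to 217.5 RPM in normocapnia, so the pairs of hypercapnia libraries stood in the opposite order to that of the V-ATPase genes. Fibro-adipogenic sums were 964.9 to 1717.9 RPM in normocapnia and 832.5 to 2136.6 RPM in hypercapnia, and myofiber sums were 134.0 to 2896.8 RPM and 276.4 to 1599.4 RPM. Lymphocyte (5 in the table) and red blood cell (3 in the table) markers summed to at most 3 and 16.4 RPM in any library, with 0 called. Of 10 satellite cell markers 0 were called.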
